A study of Mus musculus with 12 samples.

Results

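Cortex and cerebellum of a single adult mouse of the NMR-1 strain were compared on the 6 arrays that had been hybridised after 3 linear amplifications (3X), 3 arrays per tissue, out of 12 arrays in the study. The 3 cortex arrays and the 3 cerebellum arrays were technical replicates, each started from 1 ng of total RNA that had been isolated from frozen tissue with TRIzol, column purified, amplified with the RiboAmp HS kit and labelled with biotin. No treatment, transgene or disease distinguished the tissues, and all RNA came from this animal. The other 6 arrays were 1 array per tissue after a single amplification of 5 µg (1X) and 3 liver arrays at 3X. They were used here only where named. The purpose of the study, as its title and design state it, was to compare profiles after 1 and 3 amplifications. The setting of cortex against cerebellum asks which neuronal and glial genes the amplified arrays separate. All p-values below therefore rest on technical spread between arrays and do not extend to other mice.

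The neocortex is built mainly from glutamatergic pyramidal neurons, whose dendritic spines carry AMPA and NMDA receptors and a dense machinery of calcium-dependent kinases and phosphatases, together with a smaller number of local GABAergic interneurons. The cerebellum is dominated by small glutamatergic granule cells, which receive GABAergic input from Golgi cells through receptors with the alpha6 subunit and drive the large GABAergic Purkinje cells, the only output of the cerebellar cortex. Bergmann glia, a specialised astrocyte, ensheath the Purkinje dendrites. White matter with its oligodendrocytes runs through the core of the organ.

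The promoters of 4 genes whose signals separated the tissues in opposite directions are shown. Gabra6 and Neurod1 belong to the list of granule cell genes below, and Fezf2 and Nrgn to lists of cortical neuron genes. Gabra6 encodes the granule cell subunit of the GABA-A receptor, and Neurod1 a basic helix-loop-helix transcription factor of granule cells. Fezf2 is a transcription factor of deep-layer projection neurons. Nrgn encodes neurogranin, a calmodulin-binding protein of spines. Each window holds the 250 bases before the annotated start in the RefSeq table of build GRCm38.p6, all on the minus strand of the chromosome and written 5′ to 3′. Capitals mark matches to CANNTG, the E-box that basic helix-loop-helix factors can bind, which reads the same on both strands.
Gabra6: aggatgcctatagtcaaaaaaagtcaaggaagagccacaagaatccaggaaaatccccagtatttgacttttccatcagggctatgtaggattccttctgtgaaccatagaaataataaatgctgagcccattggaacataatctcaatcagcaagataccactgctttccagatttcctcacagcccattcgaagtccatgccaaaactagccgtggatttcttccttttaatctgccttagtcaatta
Neurod1: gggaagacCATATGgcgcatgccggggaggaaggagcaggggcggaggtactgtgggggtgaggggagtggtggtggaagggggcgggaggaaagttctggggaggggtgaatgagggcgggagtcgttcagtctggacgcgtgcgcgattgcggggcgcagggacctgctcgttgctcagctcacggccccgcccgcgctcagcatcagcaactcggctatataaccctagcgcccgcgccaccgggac
Fezf2: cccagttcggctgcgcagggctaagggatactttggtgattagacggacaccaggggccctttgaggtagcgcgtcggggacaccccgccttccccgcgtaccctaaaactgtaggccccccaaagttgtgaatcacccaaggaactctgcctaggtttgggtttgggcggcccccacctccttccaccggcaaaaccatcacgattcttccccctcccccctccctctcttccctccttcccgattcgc
Nrgn: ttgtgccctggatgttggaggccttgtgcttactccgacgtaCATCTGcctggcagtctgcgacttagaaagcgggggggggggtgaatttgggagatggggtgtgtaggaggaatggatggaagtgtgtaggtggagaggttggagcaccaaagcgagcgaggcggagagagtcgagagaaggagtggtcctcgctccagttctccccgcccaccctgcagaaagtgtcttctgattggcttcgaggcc
The windows lie at chr11:42321073-42321322 (Gabra6), chr2:79456637-79456886 (Neurod1), chr14:12345866-12346115 (Fezf2) and chr9:37552746-37552995 (Nrgn). Neurod1 and Nrgn held 1 match each, and Gabra6 and Fezf2 held 0. Of 32851 windows of this length in the table, 66.2% held at least 1 match. The windows differed more in CG dinucleotides, with 2 in Gabra6, 22 in Neurod1, 14 in Fezf2 and 11 in Nrgn, against a median of 6 and quartiles of 2 and 16 over all windows. Among genes with a called probe set (defined in the next paragraph), 67 that were higher in cortex had 96 windows with a median of 16 CG and a match in 65.6%. A further 101 that were higher in cerebellum had 134 windows with a median of 10 and a match in 64.9%. These are descriptions of letters in a window and not of binding.

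Values are log2 signals per probe set, and each difference is cortex minus cerebellum on that scale, so that a negative difference means a higher signal in cerebellum. Called means an adjusted p below 0.05 in limma (Benjamini-Hochberg over 12422 probe sets). Of these, 262 (2.11%) were called, 105 (0.845%) higher in cortex and 157 (1.26%) higher in cerebellum, and 59 (0.475%) also differed at least 2-fold. The 3 cortex and the 3 cerebellum arrays did not overlap in any of the 262, whereas over all probe sets cortex lay wholly above in 978 (7.87%) and wholly below in 1063 (8.56%). Counted by genes, each through its probe set with the highest mean, 82 of 8251 (0.994%) were higher in cortex and 118 (1.43%) in cerebellum. In either direction the share was 2.42%, so a single call in a longer list below lies near it. Without adjustment, 1458 of the 12422 probe sets had a limma p under 0.05 in either direction. The unadjusted counts of the lists below are to be read beside that number and are no evidence by themselves. The arrays were alike in their medians (3.45 to 3.46), and the median SD of 3 arrays was 0.11 in cortex and 0.10 in cerebellum. The 3′ minus 5′ signal of the actin control, a measure of how far amplification favours the 3′ end, was 2.72 to 2.94 in cortex and 2.75 to 3.09 in cerebellum. For the GAPDH control it had the opposite sign, -2.30 to -1.92 in cortex and -2.58 to -2.02 in cerebellum. The 3′ minus middle signal of GAPDH was 1.58 to 1.93 in cortex and 1.54 to 2.06 in cerebellum. On the 1X arrays of cortex and cerebellum the actin value was -0.93 and -0.76. The GAPDH values there were -3.50 and -3.10 (3′ minus 5′) and -1.03 and -0.76 (3′ minus middle). The sign at 3X thus depended on the control, but each measure was higher at 3X than at 1X, toward the 3′ end. At 3X each was similar in both tissues. Of the 262 called probe sets, 75 carried a letter suffix (f, s, g, i or r), among them those of Homer2, Pde1a, Celf4, Atp1b1, Basp1, Ina, Pcp2 and Pvalb. Some of these letters mark probes shared with related transcripts, but others, such as the i of Homer2 and the r of Pcp2, do not. The counts depended on single arrays. Without cortex replicate 1, 150 probe sets were called, 57 of them higher in cortex and 93 in cerebellum. Leaving out cerebellum replicate 2 gave 153 (54 and 99), and leaving out cerebellum replicate 3 gave 164 (64 and 100). Without cortex replicate 3, and likewise without cerebellum replicate 1, 68 were higher in cortex. A mean below 3.44, the median of all probe set means, is called dim here, and because RMA gives no detection call, differences that involve dim signals are not ratios of RNA. The gene lists below were chosen with earlier results of these data known, and some hold the largest differences found here. Shares of called members set beside those of all genes are therefore descriptions and not tests of enrichment. Of the members of a list that were not called, the 6 with the highest mean signal are given. Any other member named without a call completes a receptor or enzyme family or was chosen after its values were seen.

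The labels were checked first against genes of other tissues, because some kidney genes and alpha-globin separated the arrays. In cerebellum, 14 of 63 measured kidney genes were higher (22.2%, against 1.43% of all genes) and 0 were lower. At an unadjusted p under 0.05 these counts were 24 and 1. The list median was -0.14 against 0.01 over all probe sets. The mean of the list lay between 3.57 and 3.62 on the cortex arrays and between 3.95 and 4.03 on the cerebellum arrays. Umod, uromodulin of the thick ascending limb, read 5.14, 5.003 and 5.27 in cortex and 5.99, 6.07 and 5.997 in cerebellum (difference -0.88, SE 0.09, adjusted p = 0.00055). Slc34a1, the phosphate transporter of the proximal tubule, read 2.52, 2.80 and 2.58 in cortex and 3.48, 3.55 and 3.73 in cerebellum (difference -0.95, SE 0.10, adjusted p = 0.00084). Cerebellum exceeded cortex on every array for both. The 14 also held Kap, Miox, Fxyd2, Cyp4b1, Pdzk1ip1 and Akr1c21, with differences from -1.04 for the androgen-regulated kidney protein Kap to -0.48 for the steroid dehydrogenase Akr1c21. The widest differences of the list were those of Napsa (-3.43), Fbp1 (-2.59), Hsd3b2 (-2.54) and Hao2 (-1.97), with Klk1b5 (-1.44) and Kng1 (-1.46) behind them. Of these genes, Napsa, Hsd3b2, Kng1, Klk1b5, Slc34a1 and Fxyd2 were dim in cortex, and Hao2, Cyp4b1 and Akr1c21 in both tissues. Several are not specific to kidney. On the 3X liver arrays the means of Fbp1 (10.77), Kng1 (8.37), Hsd3b2 (4.80) and Hao2 (3.82) exceeded those of cerebellum (7.07, 4.87, 3.82 and 2.44). Those of Napsa (2.10) and Klk1b5 (2.31) lay below cerebellum (5.88 and 3.82). The brightest kidney genes without a call were G6pc (-0.30), Hsd3b3 (-0.03), Keg1 (-0.21), Mep1a (-0.14), Acy3 (-0.07) and Slc22a2 (-0.04), and Lrp2 and Cubn, the endocytic receptors of the proximal tubule, did not pass either (-0.27 and -0.33). Hba-a1, alpha-globin, was the only called member of 6 blood genes (16.7%, against 1.43% of all genes). It read 4.69, 4.36 and 4.77 in cortex and 5.79, 5.49 and 5.50 in cerebellum (difference -0.99, SE 0.12, adjusted p = 0.002). The other 5 blood genes were S100a9 (0.07), Alas2 (-0.09), S100a8 (-0.30), Epb42 (-0.06) and Slc4a1 (-0.08). Of 30 liver genes, Kng1 and Serpina1b (-0.52, dim in cortex) were higher in cerebellum (6.67%, against 1.43% of all genes). Cyp2c29 (-0.05), Hpd (-0.06), Rbp4 (0.60), Tdo2 (0.11), Ahsg (0.19) and Serpina1c (-0.24) were the brightest that did not pass. Without cortex replicate 1, without cortex replicate 3 or without cerebellum replicate 3, the kidney count was 11. The lost calls were among Akr1c21, Pdzk1ip1 and Miox, and the call of Serpina1b ended without any array but cortex replicate 3. The part of kidney or blood RNA in the other cerebellum results was not tested, and these values stand beside every gene group that is higher in cerebellum.

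**Figure D1:**
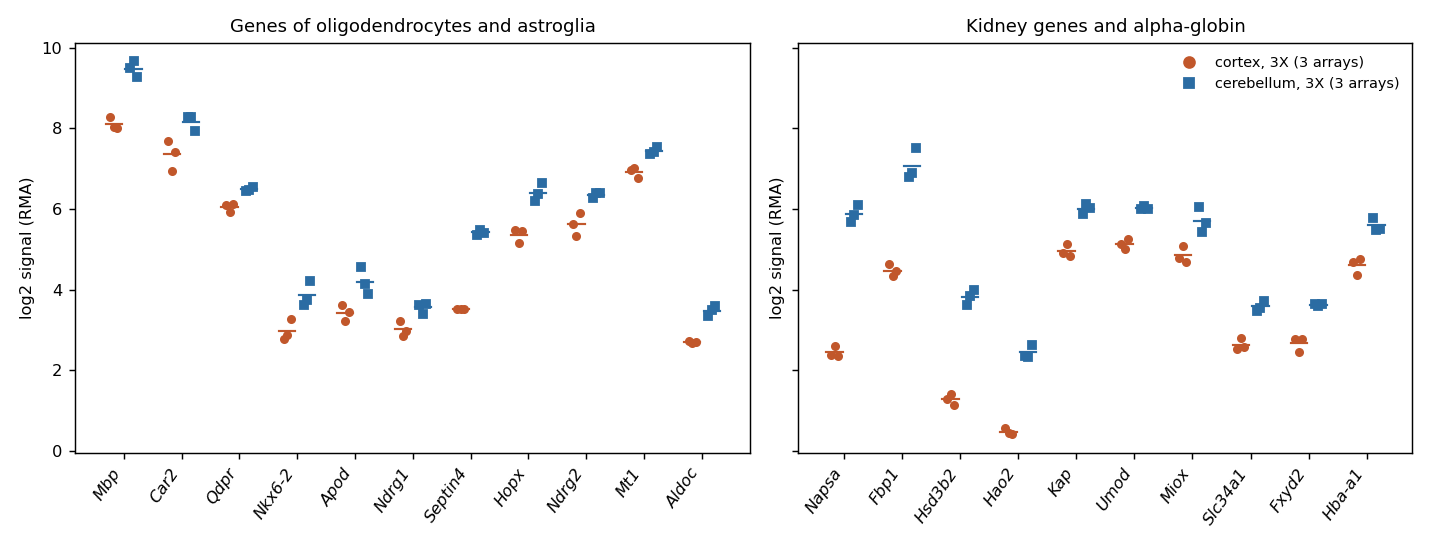
Log2 RMA signals of 11 oligodendrocyte and astroglial genes (left) and of 9 kidney genes with alpha-globin (right) on the 3 cortex arrays (circles) and the 3 cerebellum arrays (squares), with the mean of 3 arrays as a line. For each gene shown the 3 cerebellum arrays lie above the 3 cortex arrays, in both panels. The genes were chosen among those called higher in cerebellum, so this shared order is no result about their lists. Umod separates by -0.88 and Mbp by -1.36.

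Among 43 measured genes of cortical excitatory neurons, 11 (25.6%) were called higher in cortex, against 0.994% of all genes, and 0 were called higher in cerebellum. The list was chosen with earlier results of these data known and holds some of the largest differences, so these shares are no test of enrichment. The list median was 0.13, with 34 positive and 9 negative differences. Without adjustment, 17 had a p under 0.05 with the higher signal in cortex and 0 with the higher signal in cerebellum. Fewer cells of a type and less RNA per cell cannot be told apart in these bulk samples, here and below. The widest differences were those of Kalrn (3.92), Ptk2b (3.08), Nrgn (1.77), Olfm1 (1.73), Plxnd1 (1.55) and Icam5 (1.37), although a second probe set of Kalrn, a guanine exchange factor with many isoforms, differed by 0.05 and was not called. Ngef, a signalling protein that acts downstream of ephrin receptors, read 3.32, 3.38 and 3.43 in cortex and 2.66, 2.54 and 2.77 in cerebellum (difference 0.72, SE 0.09, adjusted p = 0.0018). Enc1, an actin-binding protein of pyramidal neurons, read 3.70, 3.498 and 3.71 in cortex and 3.07, 3.14 and 3.03 in cerebellum (difference 0.56, SE 0.09, adjusted p = 0.0095). Wfs1, the endoplasmic reticulum protein wolframin, read 6.70, 6.94 and 7.27 in cortex and 6.31, 6.39 and 6.28 in cerebellum (difference 0.65, SE 0.13, adjusted p = 0.032). No cortex array fell below a cerebellum array for any of these genes. Ccn3, a secreted matricellular protein, and Mmp17, a membrane-bound metalloprotease, differed by 0.64 (adjusted p = 0.0309) and 0.41 (adjusted p = 0.0337). Ngef and Mmp17 were dim in both tissues, and Kalrn, Nrgn, Plxnd1, Icam5 and Enc1 in cerebellum. The brightest of the 32 members that were not called were Dkk3 (0.11), Sema7a (-0.03), Camk2a (0.90), Ephb6 (-0.05), Cdh13 (0.18) and Chrm1 (0.19). Camk2a, the alpha subunit of calcium/calmodulin-dependent kinase II, read 6.70, 5.56 and 5.47 in cortex and 5.27, 4.92 and 4.81 in cerebellum (difference 0.90, SE 0.28, adjusted p = 0.182), without overlap between the tissues. The list held 8 called members when cortex replicate 1 or 3 or any cerebellum replicate was left out and 9 without cortex replicate 2. Mmp17 lost its call in all 6 cases (adjusted p up to 0.156 without cerebellum replicate 2). Ccn3 (up to 0.141 without cortex replicate 1) and Wfs1 (up to 0.109 without cerebellum replicate 3) lost it in 5, and Enc1 lost it without cortex replicate 1 (adjusted p = 0.0567).

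**Figure D2:**
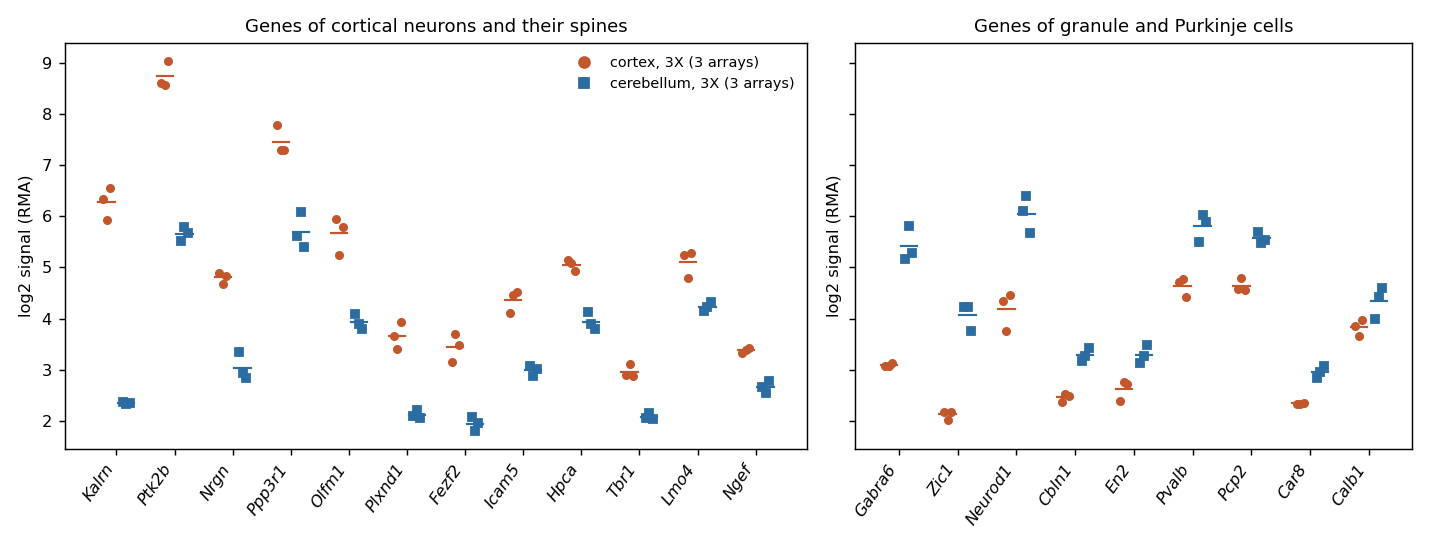
Log2 RMA signals of 12 genes of cortical neurons and their spines (left) and of 9 genes of granule and Purkinje cells (right) on the 3 cortex arrays (circles) and the 3 cerebellum arrays (squares), with the mean of 3 arrays as a line. Each of the 12 genes on the left has its 3 cortex arrays above its 3 cerebellum arrays, and the 9 on the right have the opposite order. Apart from Calb1 the genes were chosen among called ones, so this shared order is no result about their lists. Differences were positive in 22 and negative in 17 measured granule cell genes, and positive in 15 and negative in 19 Purkinje cell genes. Cck, a Purkinje list member called in cortex, is not shown. Calb1 has the smallest mean difference on the right and was not called.

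Of 24 measured transcription factors of cortical neurons, 5 (20.8%) were higher in cortex, against 0.994% of all genes, and 0 in cerebellum. The list median of 0.21 compares with 0.01 over all probe sets. Tbr1, a T-box factor of layer 6 and other early-born glutamatergic neurons, read 2.90, 3.10 and 2.88 in cortex and 2.05, 2.15 and 2.03 in cerebellum (difference 0.88, SE 0.09, adjusted p = 0.00055). Lmo4, a LIM-only factor involved in cortical area patterning, read 5.24, 4.79 and 5.28 in cortex and 4.15, 4.22 and 4.33 in cerebellum (difference 0.87, SE 0.13, adjusted p = 0.0057). Fezf2, whose promoter is printed above, read 3.16, 3.69 and 3.48 in cortex and 2.07, 1.81 and 1.95 in cerebellum (difference 1.50, SE 0.13, adjusted p = 0.00021). The 3 cortex arrays stood apart from the 3 cerebellum arrays in each of these genes, with Fezf2 dim in cerebellum and Tbr1 dim in both. Unadjusted p was under 0.05 in 12 members, all higher in cortex. Egr1, an activity-regulated zinc finger factor that was dim in cerebellum, read 3.43, 3.498 and 3.78 in cortex and 2.80, 2.84 and 2.76 in cerebellum (difference 0.77, SE 0.10, adjusted p = 0.0029). It was the only called member of 23 measured immediate early genes (4.35%, against 0.994% of all genes). Their median was -0.02, and the brightest without a call were Nr4a2 (-0.04), Jund (-0.07), Junb (-0.17), Nr4a1 (0.12), Fosl2 (0.15) and Atf3 (0.37). Cux2, a homeodomain factor of upper-layer neurons, differed by 0.45 (adjusted p = 0.0463), and its call was lost when any 1 of the 6 arrays was left out, with adjusted p up to 0.19 without cortex replicate 1. Nr4a2 and the next brightest factors, Id2 (0.04), Ldb2 (0.24), Neurod2 (0.11), Nr2f1 (0.07) and Pou3f1 (0.13), did not pass. Mef2c, a factor of excitatory neurons, depended on the probe set. The called one, dim in cerebellum, differed by 1.43, and the other 3 by 0.07, 0.10 and -0.02, whereas at 1X these 3 differed by 1.91, 2.07 and 2.47 between 1 array of each tissue.

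Of 46 measured postsynaptic and calcium signalling genes, 12 (26.1%) were higher in cortex, against 0.994% of all genes, and 0 in cerebellum. The list median was 0.17. At an unadjusted p under 0.05 the counts were 18 and 0. The 12 included Kalrn, Ptk2b, Nrgn and Icam5, which the excitatory list also holds. Of the calcineurin genes, the catalytic Ppp3ca and the regulatory Ppp3r1 were called (1.35 and 1.76). The catalytic subunits Ppp3cb (0.08, adjusted p = 0.843) and Ppp3cc (-0.06, adjusted p = 0.882) were not. Hpca, the neuronal calcium sensor hippocalcin, read 5.15, 5.09 and 4.92 in cortex and 4.13, 3.90 and 3.79 in cerebellum (difference 1.11, SE 0.11, adjusted p = 0.00041). Homer2, a scaffold that ties metabotropic glutamate receptors to calcium stores, read 6.13, 5.84 and 5.62 in cortex and 5.23, 4.90 and 5.05 in cerebellum (difference 0.81, SE 0.13, adjusted p = 0.0117). Baiap2, the insulin receptor substrate IRSp53 of spines, read 5.85, 5.81 and 5.22 in cortex and 5.03, 4.83 and 4.70 in cerebellum (difference 0.78, SE 0.16, adjusted p = 0.039). All 3 genes had every cortex array above every cerebellum array, but a second probe set of Baiap2 differed by -0.13, and the mean of both gave 0.32 (adjusted p = 0.123). Of the calmodulin-dependent phosphodiesterases, Pde1a read 3.06, 2.64 and 2.59 in cortex and 1.96, 2.17 and 1.98 in cerebellum (difference 0.72, SE 0.13, adjusted p = 0.0165) and Pde1b read 7.76, 7.90 and 7.75 in cortex and 6.98, 6.99 and 7.27 in cerebellum (difference 0.72, SE 0.10, adjusted p = 0.0038). Pde1c read 2.42, 2.38 and 2.39 in cortex and 2.36, 2.60 and 2.43 in cerebellum and did not pass (difference -0.06, SE 0.09, adjusted p = 0.888). Prkce, protein kinase C epsilon, read 3.62, 2.65 and 3.45 in cortex and 2.05, 2.31 and 2.41 in cerebellum (difference 0.98, SE 0.21, adjusted p = 0.0472), with cortex replicate 2 close to the cerebellum arrays. Pde1a and Prkce were dim in both tissues. Quantile normalization of the 6 arrays moved the adjusted p of Prkce to 0.0541. For Prkcb, protein kinase C beta, the brighter probe set did not pass (0.35, adjusted p = 0.101) and the other did (0.88, adjusted p = 0.0175). Dlg4, the scaffold PSD-95, differed by 0.01 without a call, and the other bright members without one were Vsnl1 (0.29), Ncs1 (0.22), Atp2a2 (0.13) and Itpkb (0.13). The list count was 9 without any 1 cerebellum array, 10 without cortex replicate 1 and 11 without cortex replicate 2 or 3. Baiap2 (adjusted p up to 0.166 without cerebellum replicate 2) and Prkce (up to 0.177 without cortex replicate 1) lost their calls in 5 of the 6 cases, Pde1a without cerebellum replicate 1 (adjusted p = 0.0642) or 3, and Homer2 without cerebellum replicate 2 (adjusted p = 0.0739).

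**Figure D3:**
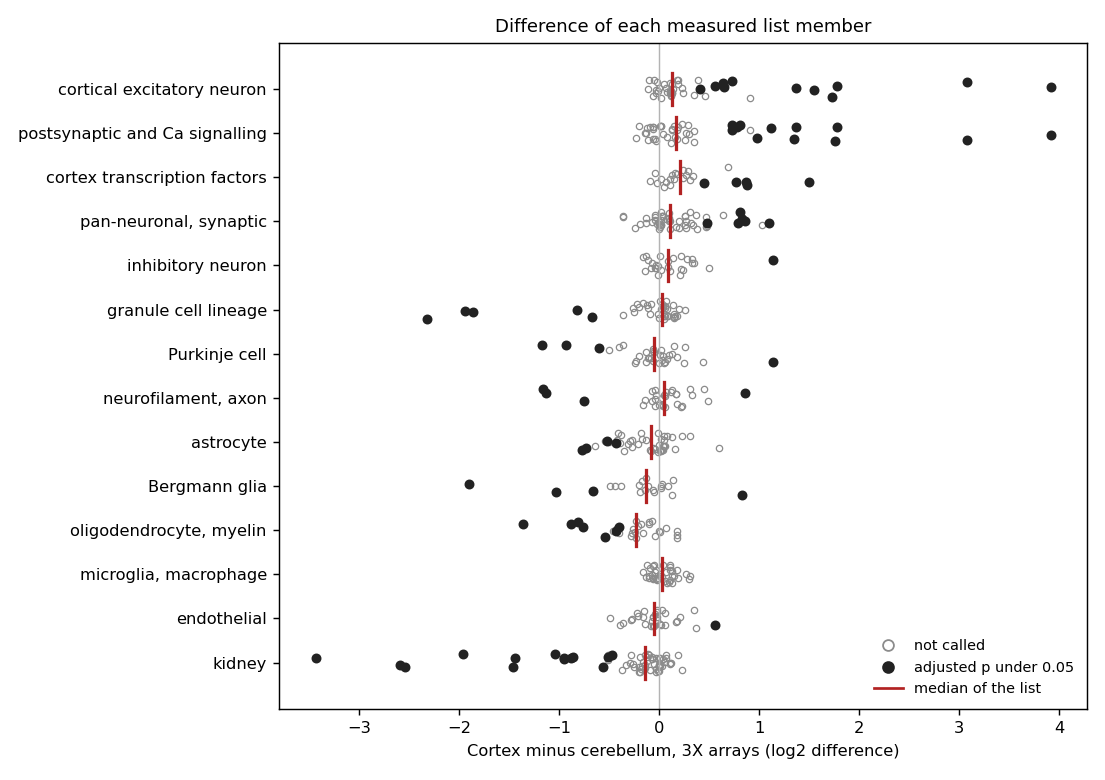
Difference of each measured member of 14 gene lists on the log2 scale (horizontal axis, cortex minus cerebellum, 3 against 3 arrays), with called members filled, the others open and the list median as a vertical bar. Called members of the excitatory, postsynaptic and transcription factor lists lie to the right of 0, those of the oligodendrocyte, granule cell and kidney lists to the left, and the microglial list has no filled point.

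Of 54 measured pan-neuronal and synaptic genes, 6 (11.1%) were higher in cortex, against 0.994% of all genes, and 0 in cerebellum. The median was 0.11, with 41 positive and 13 negative differences. Before adjustment, 19 had a p under 0.05 with cortex higher and 3 with cerebellum higher. Celf4, an RNA-binding protein of excitatory neurons, read 7.82, 7.50 and 7.72 in cortex and 6.77, 6.83 and 6.96 in cerebellum (difference 0.83, SE 0.10, adjusted p = 0.0018). Atp1b1, the beta1 subunit of the sodium pump, read 5.71, 5.87 and 6.11 in cortex and 5.10, 4.90 and 5.28 in cerebellum (difference 0.80, SE 0.13, adjusted p = 0.0079). Basp1, a membrane protein of growth cones and terminals, read 6.92, 6.56 and 6.70 in cortex and 5.65, 5.66 and 5.57 in cerebellum (difference 1.10, SE 0.10, adjusted p = 0.00031). The tissues did not overlap in these genes. Gnao1, the G protein alpha-o (difference 0.79, SE 0.14, adjusted p = 0.0179), Map2, the dendritic microtubule protein (difference 0.86, SE 0.18, adjusted p = 0.0434), and Syn2, synapsin II (difference 0.48, SE 0.09, adjusted p = 0.0285), were also called. Syn2 was dim in both tissues. The brightest members without a call were Dnm1 (0.02), Chgb (0.26), Nsg1 (-0.37), Syt1 (0.64), Rtn1 (1.03) and Dlg4 (0.01). Rtn1, reticulon 1, read 9.63, 8.62 and 9.03 in cortex and 8.30, 8.19 and 7.70 in cerebellum and fell just outside the threshold (adjusted p = 0.0546), without overlap. The count depended on single arrays. The list held 13 called members without cortex replicate 2 and 3 without cerebellum replicate 2. It held 4 without cortex replicate 1, cerebellum replicate 1 or cerebellum replicate 3. Map2 lost its call without each cerebellum array (adjusted p up to 0.145), Gnao1 without cortex replicate 1 (adjusted p = 0.0938) or cerebellum replicate 2, and Syn2 in 5 of the 6 cases (up to 0.117 without cortex replicate 1). A mean over all probe sets of Gnao1 gave 0.36 (adjusted p = 0.123).

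In the list of 31 axonal genes, 3 (9.68%) were higher in cerebellum and 1, Map2, in cortex (3.23%). Over all genes these shares were 1.43% and 0.994%. At an unadjusted p under 0.05 the counts were 3 and 4. The median was 0.05, with 20 positive and 11 negative differences. The 3 called in cerebellum encode intermediate filament proteins. Ina, alpha-internexin, read 8.20, 8.19 and 8.48 in cortex and 9.04, 8.91 and 9.19 in cerebellum (difference -0.76, SE 0.11, adjusted p = 0.0046). Nefh and Nefm, the heavy and medium neurofilament chains, differed by -1.16 and -1.13 with no overlap. All 3 were higher on every cerebellum array than on any cortex array. Nefl, the light chain, read 2.35, 2.26 and 2.18 in cortex and 2.32, 2.35 and 2.26 in cerebellum (difference -0.05, SE 0.08, adjusted p = 0.917), a dim signal in both tissues. The brightest members without a call were Mapt (-0.04), Ank3 (-0.14), Stmn2 (0.00), Stmn1 (0.03), Kif5a (0.06) and Cntnap1 (0.12). The cerebellum count stayed at 3 without any 1 array, and the cortex count was 3 without cortex replicate 2 and 0 without any 1 cerebellum array. Prph, peripherin, passed at a dim probe set (-0.57, adjusted p = 0.0351) and not at its brighter one (0.03).

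Of 27 measured inhibitory neuron genes, 1 (3.70%, against 0.994% of all genes) was higher in cortex and 0 in cerebellum. At an unadjusted p under 0.05 these counts were 5 and 0. The list median was 0.09, with 16 positive and 11 negative differences. The called gene was Cck, cholecystokinin, a peptide of both interneurons and pyramidal neurons, which read 5.73, 5.52 and 5.70 in cortex and 4.43, 4.61 and 4.49 in cerebellum (difference 1.14, SE 0.09, adjusted p = 0.00011). Its 3 cortex arrays lay above the 3 cerebellum arrays. Npy, neuropeptide Y, read 5.98, 5.74 and 6.02 in cortex and 5.58, 5.42 and 5.25 in cerebellum and fell just outside the threshold (difference 0.49, SE 0.11, adjusted p = 0.0538), without overlap and with a difference of 1.78 at 1X. The other bright members were Dlx2 (-0.08), Erbb4 (0.09), Cort (0.11), Maf (0.14) and Reln (-0.14). Gad1 and Gad2, the enzymes of GABA synthesis, differed by 0.33 and 0.22 without a call. Slc32a1, the vesicular GABA transporter, read 4.004, 3.67 and 3.86 in cortex and 3.87, 3.90 and 4.09 in cerebellum (difference -0.11, SE 0.11, adjusted p = 0.788). Sst, somatostatin, read 3.14, 3.27 and 3.35 in cortex and 3.32, 3.52 and 3.19 in cerebellum (difference -0.09, SE 0.10, adjusted p = 0.843), although the 1X arrays differed by 1.66. Calb2, calretinin, of cortical interneurons as well as granule and unipolar brush cells, read 3.03, 2.65 and 2.98 in cortex and 3.06, 3.07 and 3.02 in cerebellum (difference -0.16, SE 0.11, adjusted p = 0.645), against -1.93 at 1X. Groups overlapped in Slc32a1, Sst and Calb2, and Sst and Calb2 were dim in both tissues at 3X. Among 30 neuropeptide and granin genes, Cck and Penk, proenkephalin (1.87), were called in cortex (6.67%) and 0 in cerebellum. At an unadjusted p under 0.05 these counts were 6 and 2. Differences were positive in 16 and negative in 14, and besides Npy and Cort the brightest without a call were Chgb (0.26), Chga (-0.12), Pdyn (0.19) and Pcsk1n (-0.13). Without cortex replicate 2, or without cerebellum replicate 1, a further member of the inhibitory list was called, and the neuropeptide count was then 4 and 3. Penk and Pde1b, both abundant in striatum, were the 2 called members of 15 measured striatal genes. This was 13.3%, against 0.994% of all genes. Other bright striatal genes, Pdyn (0.19), Drd3 (0.07), Strn (-0.06), Tac1 (0.28), Arpp19 (0.09) and Drd2 (0.12), did not pass. At an unadjusted p under 0.05, 5 of 15 measured genes of hippocampal neurons were higher in cortex and 0 in cerebellum. Of these 15, 2 (13.3%, against 0.994% of all genes) were called in cortex and 0 in cerebellum. They were Wfs1 and Pkp2, the desmosomal protein plakophilin 2, which read 3.23, 2.87 and 3.78 in cortex and 2.62, 2.23 and 1.98 in cerebellum (difference 1.02, SE 0.22, adjusted p = 0.0425) and was dim in both tissues. The mean of the 3 probe sets of Pkp2 gave 0.41 (adjusted p = 0.0718). Pkp2 lost its call in 4 of the 6 cases (adjusted p up to 0.181 without cerebellum replicate 2), and the list held 0 called members without cortex replicate 3, cerebellum replicate 2 or cerebellum replicate 3 and 1 in the other cases. The brightest without a call were Itga7 (-0.02), Bok (0.34), Tdo2 (0.11), Dsp (0.02), Neurod6 (0.18) and Man1a (0.09). Of 17 choroid plexus genes, 1 (5.88%, against 0.994% of all genes) was called in cortex. It was Ttr, transthyretin, which read 11.001, 10.94 and 11.07 in cortex and 9.77, 9.58 and 9.85 in cerebellum (difference 1.27, SE 0.09, adjusted p = 5.8e-05). The call of Ttr was lost when all 9 3X arrays or all 12 arrays were fitted (limma adjusted p = 0.09 and 0.165). Folr1 (-0.07), F5 (0.01), Slc4a2 (-0.07), Igf2 (0.06), Msx1 (0.11) and Foxj1 (0.03) did not pass. The part of striatal, hippocampal or choroid plexus tissue in the cortex results was not tested.

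Of 39 measured genes of the granule cell lineage, 5 were higher in cerebellum, against 1.43% of all genes, and 0 in cortex, while the list median was 0.03. Before adjustment these counts were 9 in cerebellum and 2 in cortex at a p under 0.05. Cbln1, a secreted synaptic organiser that granule cells release onto Purkinje dendrites, read 2.36, 2.53 and 2.49 in cortex and 3.16, 3.27 and 3.42 in cerebellum (difference -0.82, SE 0.09, adjusted p = 0.0012). En2, an engrailed homeodomain factor of the cerebellar anlage, read 2.39, 2.75 and 2.72 in cortex and 3.13, 3.26 and 3.48 in cerebellum (difference -0.67, SE 0.12, adjusted p = 0.0198). Both genes were dim in both tissues, and the cerebellum arrays were higher in each. Zic1, a zinc finger factor of granule cells and their precursors, differed by -1.94 and Neurod1 by -1.86, and Zic1 and Gabra6 were dim in cortex. Gabra6 read 3.07, 3.07 and 3.14 in cortex and 5.17, 5.82 and 5.27 in cerebellum (difference -2.33, SE 0.15, adjusted p = 2.1e-05) with its first probe set. With the second probe set it read 3.66, 3.46 and 3.70 in cortex and 3.70, 3.93 and 3.77 in cerebellum and did not pass (difference -0.19, SE 0.10, adjusted p = 0.509), although at 1X that probe set differed by -2.69. Of the 34 members without a call, 22 had a positive difference, and the brightest were Snap25 (0.02), Dcc (0.15), Ptch1 (0.08), Unc5c (0.06), Wnt3 (0.03) and Gabrd (0.03). En1 (-0.23) and Pax6 (-0.20), transcription factors of the cerebellar anlage and of granule cells, did not pass. The list count was 4 without cortex replicate 1 or cerebellum replicate 2, and 5 in the other cases. En2 was not called without cortex replicate 1, cerebellum replicate 2 (adjusted p = 0.0858) or cerebellum replicate 3.

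Purkinje cell genes gave 3 calls in cerebellum (8.82%) and 1 in cortex (2.94%) among 34 measured, with a median of -0.05. Over all genes these shares were 1.43% and 0.994%. Pcp2, a G protein modulator that marks Purkinje cells, read 4.57, 4.79 and 4.55 in cortex and 5.69, 5.48 and 5.54 in cerebellum (difference -0.93, SE 0.10, adjusted p = 0.00063). Car8, a carbonic anhydrase-related protein that binds the inositol trisphosphate receptor, read 2.34, 2.34 and 2.36 in cortex and 2.83, 2.96 and 3.07 in cerebellum (difference -0.61, SE 0.09, adjusted p = 0.0046). Pvalb, parvalbumin of Purkinje cells and molecular layer interneurons, read 4.72, 4.77 and 4.42 in cortex and 5.50, 6.03 and 5.89 in cerebellum (difference -1.17, SE 0.14, adjusted p = 0.0018) and was also called with its second probe set (-1.42). Each separated the arrays fully, with Car8 dim in both tissues. The cortex call was Cck, which the list shares with the interneuron list. Calb1, calbindin, also abundant in distal kidney tubules, read 3.85, 3.67 and 3.98 in cortex and 3.99, 4.43 and 4.59 in cerebellum and did not pass (difference -0.50, SE 0.15, adjusted p = 0.168), although its groups did not overlap. The brightest members without a call were Nsg1 (-0.37), Id2 (0.04), Shh (0.04), Tpd52 (0.13) and Rgs8 (-0.40) and the glutamate transporter Slc1a6 (-0.24). Inpp5a, which hydrolyses inositol trisphosphate, was called with its less bright probe set only (-0.58, adjusted p = 0.0261), as was Nsg1, an endosomal protein of neurons (-0.84, adjusted p = 0.0076). The cerebellum count stayed between 3 and 5 without any 1 array. Of 16 cerebellar interneuron genes, Pvalb alone was called (6.25%), and Tfap2a (-0.02), Glra1 (-0.11), Nos1 (0.23), Nxph1 (-0.04), Gad1 (0.33) and Slc32a1 (-0.11) were the brightest that were not. Of 19 brainstem and deep nuclei genes, 0 were called by their brightest probe set in limma, while at an unadjusted p under 0.05, 3 were higher in cerebellum and 1 in cortex. The brightest were Hoxa4 (0.31), Hoxb5 (-0.04), Gata2 (-0.12), Glra1 (-0.11), Hoxb4 (0.04) and Prph (0.03).

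Among transmitter receptors, the called genes were Gabra6, Gria1 and Gria2. Gabra6 was the only one called in a list of 17 genes (5.88%, against 1.43% of all genes). The list holds GABA and glycine receptor subunits together with the receptor-associated genes Gabarap, Gabarapl1, Gabarapl2 and Gphn. At an unadjusted p under 0.05, 3 were higher in cortex and 3 in cerebellum. The other alpha subunits measured, Gabra2 and Gabra3, differed by 0.26 (95% confidence interval -0.07 to 0.58) and 0.23 (0.03 to 0.43). The beta subunit Gabrb2 differed by 0.39 (0.13 to 0.65) and Gabrb1 by 0.20 (-0.01 to 0.41), and neither was called. Gabrd, the delta subunit that pairs with alpha6 in granule cells, read 6.35, 6.49 and 6.15 in cortex and 6.32, 6.35 and 6.22 in cerebellum (difference 0.03, SE 0.10, adjusted p = 0.963), and its groups overlapped. Gabbr1, of the metabotropic GABA-B receptor, differed by 0.17, and Glrb, the glycine receptor beta subunit, by -0.29, without a call, as were Glra1 (-0.11) and Gabrg3 (0.08). Of 16 genes of glutamate receptors and their auxiliary or scaffold proteins, 6 were higher in cortex and 0 in cerebellum at an unadjusted p under 0.05. The list median was 0.12. After adjustment, 2 (12.5%, against 0.994% of all genes) were higher in cortex and 0 in cerebellum. Both were AMPA receptor subunits. Gria1 read 8.82, 8.69 and 8.48 in cortex and 7.85, 7.74 and 7.90 in cerebellum (difference 0.83, SE 0.10, adjusted p = 0.0018), and Gria2 read 7.78, 6.98 and 7.58 in cortex and 6.53, 6.52 and 6.34 in cerebellum (difference 0.98, SE 0.17, adjusted p = 0.0165). Gria3 (0.39, 0.10 to 0.68) and Gria4 (-0.14, -0.39 to 0.11) were not called. A second probe set of Gria2 differed by 0.99 with an adjusted p of 0.0746, and its 2 dim ones by -0.01 and 0.16. Of the NMDA receptor subunits, Grin2a differed by 0.47 (0.19 to 0.75), Grin2b by 0.20 and Grin2c, the subunit of mature granule cells, by 0.06 (-0.14 to 0.25), none with a call. The NMDA receptor subunit Grin2d (-0.01), the kainate receptor genes Grik1 (0.05), Grik2 (0.28) and Grik5 (0.05) and the AMPA receptor auxiliary genes Cnih2 (0.32) and Cacng2 (-0.09) did not pass. The glutamate count was 1 without cortex replicate 1 or 3 or cerebellum replicate 2 or 3, when Gria2 lost its call (adjusted p up to 0.0739), and 3 without cortex replicate 2. Among 43 voltage-gated and related channels, 1 (2.33%) was called, against 2.42% of all genes in either direction. This was Kcna1, a delayed rectifier of axons and basket cell terminals, which read 5.27, 5.13 and 5.32 in cortex and 5.63, 5.71 and 5.74 in cerebellum (difference -0.45, SE 0.09, adjusted p = 0.0246). It lost its call in 5 of the 6 cases, with adjusted p up to 0.108 without cerebellum replicate 2. The brightest without a call were Kcnj9 (0.01), Hcn2 (0.09), Kcnj6 (-0.08), Kcns1 (0.02), Kcnk1 (-0.01) and Kcnc1 (-0.20). Scn1a (-0.61, adjusted p = 0.0584) and Kcnma1 (0.57, adjusted p = 0.0517) fell just outside the threshold. Hcn2, a pacemaker channel, passed at 1 of its 2 probe sets (-0.60, adjusted p = 0.0079), and not at the brighter one (0.09).

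**Figure D4:**
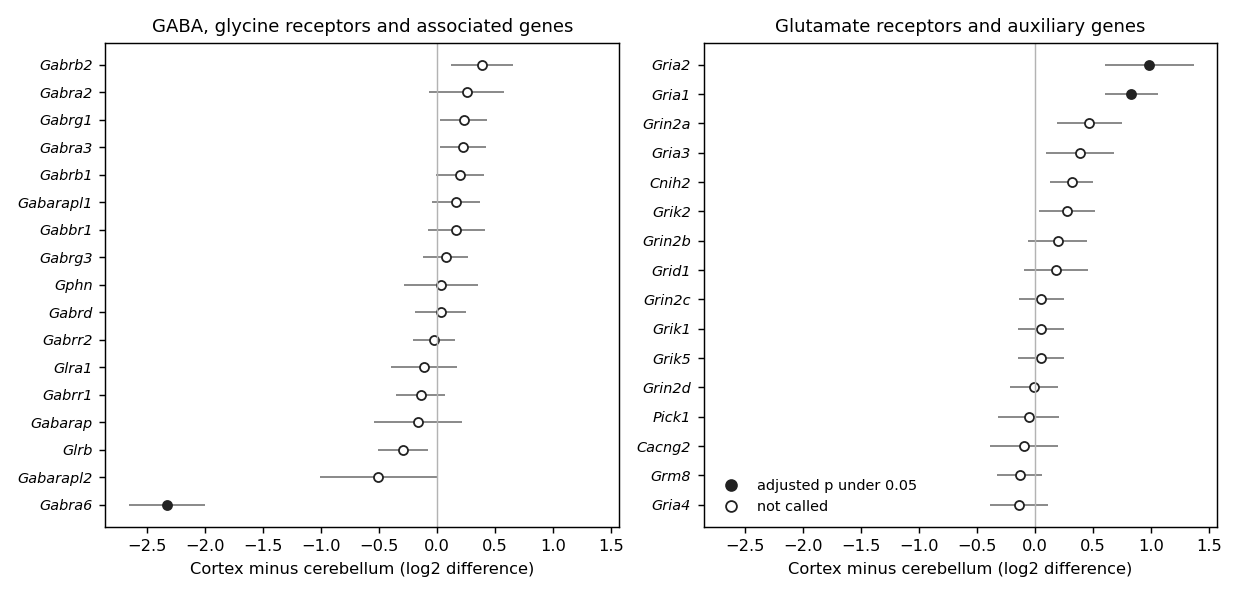
Difference (cortex minus cerebellum, log2 scale) of 17 genes of GABA and glycine receptors and associated proteins (left) and 16 genes of glutamate receptors and auxiliary proteins (right), with the 95% confidence interval from limma as a line, called genes filled and the others open. Gabra6 lies at -2.33 and the other genes of its panel lie between -0.50 (Gabarapl2) and 0.39 (Gabrb2), while Gria1 and Gria2 are the filled points on the right.

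Of 29 measured oligodendrocyte and myelin genes, 7 (24.1%) were higher in cerebellum, against 1.43% of all genes, and 0 in cortex. The median of -0.23 was the most negative of the 29 lists. At an unadjusted p under 0.05, 16 were higher in cerebellum and 0 in cortex. Mbp, myelin basic protein, read 8.29, 8.05 and 8.02 in cortex and 9.51, 9.67 and 9.27 in cerebellum (difference -1.36, SE 0.12, adjusted p = 0.00017). Car2, carbonic anhydrase 2, which kidney tubules also express, read 7.70, 6.95 and 7.42 in cortex and 8.29, 8.28 and 7.93 in cerebellum (difference -0.81, SE 0.17, adjusted p = 0.043). Nkx6-2, a homeodomain factor of oligodendrocytes, read 2.78, 2.88 and 3.27 in cortex and 3.62, 3.75 and 4.20 in cerebellum (difference -0.88, SE 0.16, adjusted p = 0.0219). The cerebellum arrays lay above the cortex arrays in all 3. Apod, apolipoprotein D, differed by -0.77, and Ndrg1, a cytoplasmic protein of myelinating cells, by -0.54. Qdpr, dihydropteridine reductase, differed by -0.44, and Klk6, a secreted protease of oligodendrocytes, by -0.40. Nkx6-2, Apod and Ndrg1 were dim in cortex and Klk6 in both tissues. The calls depended on having 3 arrays a tissue. Without any 1 array, 2 or 3 of the list were called, with 2 in the absence of cortex replicate 2, cortex replicate 3 or cerebellum replicate 2. Mbp kept its call in all 6 cases and Nkx6-2 in 2, while Qdpr was called in 0, with adjusted p up to 0.109. Car2 reached 0.196 and Apod 0.132 without cerebellum replicate 2, Klk6 0.159 and Nkx6-2 0.108 without cortex replicate 1, and Ndrg1 0.144 without cerebellum replicate 3. Differences were negative in 24 members and positive in 5, and the brightest without a call were Mal (-0.27), Sox10 (0.17), Myrf (-0.26), Evi2a (-0.46), Tmeff2 (0.06) and Mag (0.00). Mobp, a structural protein of compact myelin, was called with 2 of its 4 probe sets (-1.77 and -1.56), and the other 2 differed by -0.30 and -0.23. At 1X those 2 differed by -2.24 and -2.30. A second probe set of Mbp differed by 0.14 and was dim.

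Of 10 measured genes of oligodendrocyte precursors, 1 (10%, against 0.994% of all genes) was called higher in cortex and 0 in cerebellum. At an unadjusted p under 0.05, 3 were higher in cortex and 1 in cerebellum. Sox11, a factor of immature neurons as well as precursors, read 5.40, 4.85 and 5.17 in cortex and 4.61, 4.26 and 4.11 in cerebellum (difference 0.81, SE 0.16, adjusted p = 0.0261). It was not called without cortex replicate 1 or 3 or cerebellum replicate 2 (adjusted p = 0.131) or 3. Pdgfra, the receptor that defines the precursors, read 4.64, 4.44 and 4.56 in cortex and 4.45, 4.53 and 4.50 in cerebellum (difference 0.06, SE 0.09, adjusted p = 0.901), and its groups overlapped. The proteoglycan genes Vcan (0.06), Ncan (0.20) and Bcan (0.26) were not called, nor were Sox4 (0.33) and Ptprz1 (-0.45).

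Of 43 measured astrocyte genes, 4 (9.30%) were higher in cerebellum, against 1.43% of all genes, and 0 in cortex. The median was -0.08, with 26 negative and 17 positive differences. At an unadjusted p under 0.05, 15 were higher in cerebellum and 2 in cortex. Aldoc, aldolase C of astrocytes and of striped Purkinje cells, read 2.72, 2.69 and 2.71 in cortex and 3.35, 3.496 and 3.60 in cerebellum (difference -0.78, SE 0.09, adjusted p = 0.001). Ndrg2, an astrocyte cytoplasmic protein, read 5.63, 5.33 and 5.90 in cortex and 6.28, 6.39 and 6.40 in cerebellum (difference -0.73, SE 0.13, adjusted p = 0.0177). Mt1, metallothionein 1, read 6.96, 7.02 and 6.77 in cortex and 7.37, 7.40 and 7.53 in cerebellum (difference -0.52, SE 0.09, adjusted p = 0.0192). The 3 cerebellum arrays were the higher ones in each. Atp1b2, the glial beta subunit of the sodium pump, differed by -0.43 (adjusted p = 0.0425). Aldoc and Atp1b2 were dim in cortex. The brightest members without a call were Cst3 (0.05), Slc1a2 (0.60), Ednrb (-0.28), Apoe (0.00), Mt2 (-0.38) and Gstm1 (-0.40). Slc1a2, the glutamate transporter GLT-1, read 10.44, 9.97 and 10.06 in cortex and 9.64, 9.81 and 9.24 in cerebellum (difference 0.60, SE 0.16, adjusted p = 0.116), higher in cortex without overlap. Aqp4, the water channel of astrocyte endfeet, read 5.01, 4.50 and 4.98 in cortex and 5.46, 5.69 and 4.97 in cerebellum (difference -0.54, SE 0.19, adjusted p = 0.247), with overlapping groups. Gja1, connexin 43, read 2.73, 2.34 and 2.88 in cortex and 2.97, 3.36 and 3.55 in cerebellum (difference -0.64, SE 0.17, adjusted p = 0.103), a dim signal in both tissues with no overlap and no call. S100b read 5.54, 5.59 and 5.65 in cortex and 5.84, 5.90 and 6.32 in cerebellum (difference -0.43, SE 0.12, adjusted p = 0.153), also without overlap. The astrocyte count fell to 1 without cortex replicate 1 or cerebellum replicate 2 and to 2 without cortex replicate 3 or cerebellum replicate 3. Aldoc was called in every case. Atp1b2 reached an adjusted p of 0.19 and Ndrg2 of 0.0918 without cerebellum replicate 2, and Mt1 of 0.0796 without cerebellum replicate 3. Averaged over their probe sets, Atp1b2 differed by -0.12 (adjusted p = 0.716) and Ndrg2 by -0.44 (adjusted p = 0.275).

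Bergmann glia genes gave 3 calls in cerebellum (14.3%) and 1 in cortex (4.76%) among 21 measured, with a median of -0.13. Over all genes these shares were 1.43% and 0.994%. Septin4, a filament-forming GTPase of Bergmann processes, read 3.53, 3.52 and 3.51 in cortex and 5.37, 5.48 and 5.42 in cerebellum (difference -1.90, SE 0.08, adjusted p = 1.1e-06). Hopx, a homeodomain-only protein, read 5.49, 5.16 and 5.45 in cortex and 6.19, 6.36 and 6.65 in cerebellum (difference -1.04, SE 0.13, adjusted p = 0.002). Sparc, a matricellular protein, read 2.27, 2.13 and 2.26 in cortex and 2.99, 2.93 and 2.74 in cerebellum (difference -0.66, SE 0.09, adjusted p = 0.0042). In each the cerebellum arrays stood above the cortex arrays, and Sparc was dim in both tissues. The cortex call was Gria1, a receptor subunit that Bergmann glia share with neurons. Fabp7, the brain fatty acid-binding protein, read 7.92, 8.03 and 8.31 in cortex and 8.14, 8.35 and 8.35 in cerebellum (difference -0.19, SE 0.11, adjusted p = 0.593). The other bright members, Etv4 (0.08), Hes5 (-0.05), Notch2 (0.02), Sox3 (0.01) and Ptprz1 (-0.45), were not called. The 3 cerebellum calls were kept in all 6 cases of a left-out array.

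Of 37 microglia and macrophage genes, 0 passed in limma, with a median of 0.03. At an unadjusted p under 0.05, 3 were higher in cortex and 0 in cerebellum. Csf1r, the receptor for colony stimulating factor 1, read 4.97, 5.09 and 4.70 in cortex and 4.57, 4.76 and 4.62 in cerebellum (difference 0.27, SE 0.11, adjusted p = 0.356). Tyrobp, the adaptor DAP12, read 7.72, 8.10 and 8.07 in cortex and 7.71, 8.02 and 7.94 in cerebellum (difference 0.07, SE 0.12, adjusted p = 0.907). C1qb, a complement subunit, read 4.22, 4.46 and 4.06 in cortex and 4.40, 4.25 and 4.30 in cerebellum (difference -0.07, SE 0.11, adjusted p = 0.907). The tissues overlapped in each of these genes. Besides Tyrobp, the brightest members were Fcgr3 (0.11), Coro1a (0.15), Csf3r (0.10), Aif1 (-0.09) and Laptm5 (0.31). Over the whole list the differences ran from -0.16 for Ctss to 0.31 for Laptm5. Of 32 endothelial genes, 1 (3.1%) was called, near the 2.42% of all genes called in either direction. This was Ly6e, a surface protein that many other cells also carry, which was higher in cortex (difference 0.56, SE 0.09, adjusted p = 0.0079). The mean of the 2 probe sets of Ly6e gave 0.36 (adjusted p = 0.0696). Other bright endothelial genes, Tjp1 (0.18), Slc2a1 (-0.04), Ednrb (-0.28), Sox18 (0.35), Spock2 (0.37) and Bsg (0.05), did not pass, and before adjustment 3 were higher in cortex and 7 in cerebellum at a p under 0.05. Cldn5, the tight junction claudin of brain endothelium, read 4.64, 4.80 and 4.69 in cortex and 4.95, 4.85 and 5.42 in cerebellum (difference -0.36, SE 0.14, adjusted p = 0.311). Of 34 mural, fibroblast and meningeal genes, 1 (2.94%) was called, also near the share of all genes. Dcn, decorin, read 3.61, 3.21 and 3.52 in cortex and 2.91, 2.42 and 2.83 in cerebellum (difference 0.73, SE 0.14, adjusted p = 0.0297). Ptgds, prostaglandin D synthase of the meninges (-0.33), was not called, nor were Rgs5 (0.02), Myh11 (-0.03), Col1a2 (-0.17), Igf2 (0.06) and Serpinf1 (-0.21). Dcn was dim in cerebellum and lost its call without cortex replicate 1 (adjusted p = 0.137) or 3 or cerebellum replicate 2 or 3. Housekeeping genes gave 1 call among 17 (5.88%), Rplp0 of the large ribosomal subunit (difference -0.42, SE 0.09, adjusted p = 0.0393), which was lost in 5 of the 6 cases. The brightest others were Actb (0.28), Aldoa (0.16), Tubb5 (0.35), Tfrc (-0.02), Ywhaz (0.36) and Rps3 (-0.07).

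Beyond the lists, several genes ranked among the 24 largest called differences in each direction. In cortex, Dynll1, the dynein light chain LC8, read 3.72, 3.51 and 3.77 in cortex and 2.39, 2.48 and 2.52 in cerebellum (difference 1.20, SE 0.09, adjusted p = 7.9e-05). Actn1, alpha-actinin 1, which crosslinks actin, read 4.75, 4.40 and 4.82 in cortex and 3.49, 3.47 and 3.63 in cerebellum (difference 1.13, SE 0.12, adjusted p = 0.00055). Septin11, a septin of dendritic branches, read 5.37, 4.78 and 4.91 in cortex and 4.23, 3.94 and 3.72 in cerebellum (difference 1.06, SE 0.16, adjusted p = 0.0076). In these genes every cortex array was above every cerebellum array, and Actn1 had 2 further probe sets at 0.02 and 0.22. Sowaha, an ankyrin-repeat protein, differed by 1.38, Serpini1, neuroserpin, by 0.99, and Tsnax, translin-associated factor X, by 0.95. Dynll1, Sowaha and Serpini1 were dim in cerebellum, and Serpini1 lost its call in 4 of the 6 cases (adjusted p up to 0.139 without cerebellum replicate 2). In cerebellum, Clic4, an intracellular chloride channel protein, read 6.69, 5.85 and 6.39 in cortex and 7.56, 7.97 and 7.56 in cerebellum (difference -1.38, SE 0.19, adjusted p = 0.0038), and its 2 dim probe sets were also called (-0.48 and -0.54). Ank1, the ankyrin of erythrocytes and of cerebellar neurons, read 3.06, 2.97 and 3.32 in cortex and 4.20, 4.11 and 4.61 in cerebellum (difference -1.19, SE 0.14, adjusted p = 0.0013), while its 2 other probe sets were not called (0.06 and -0.27). Aldh1a1, retinaldehyde dehydrogenase 1, read 7.39, 7.28 and 7.32 in cortex and 8.22, 8.64 and 8.63 in cerebellum (difference -1.17, SE 0.12, adjusted p = 0.00052), and its second probe set was not called (0.04). All 3 were higher on the cerebellum arrays without overlap, with Ank1 dim in cortex. Slc27a2, a fatty acid transporter of kidney and liver, read 1.14, 1.61 and 1.12 in cortex and 2.39, 2.47 and 2.53 in cerebellum (difference -1.17, SE 0.13, adjusted p = 0.00085). Slc22a18, an organic cation transporter-like gene, read 5.85, 6.03 and 5.98 in cortex and 7.04, 6.82 and 7.15 in cerebellum (difference -1.05, SE 0.10, adjusted p = 0.00041). Cd59a, an inhibitor of complement lysis, read 4.58, 4.39 and 4.89 in cortex and 5.62, 5.72 and 5.88 in cerebellum (difference -1.12, SE 0.13, adjusted p = 0.0011). The same separation held for each, and Slc27a2 was dim in both tissues. Nacc2, a transcriptional repressor (-1.08), and Flii, an actin-remodelling protein (-1.07), completed the 24 together with genes named above or in the oligodendrocyte and kidney lists and Smarcd2, a chromatin remodelling subunit (-1.91). Flii was dim in cortex. The called probe set of Smarcd2 carried a suffix, and its other 3 were not called (0.07, -0.27 and -0.18). On the 3X liver arrays the means of Slc27a2 (4.26), Slc22a18 (8.02), Aldh1a1 (9.48), Smarcd2 (8.11) and Cd59a (5.89) exceeded those of cerebellum. The cerebellum means were 2.46, 7.01, 8.50, 7.17 and 5.74. Clic4 (5.68), Ank1 (2.45), Nacc2 (4.66) and Flii (2.81) lay lower in liver than in cerebellum (7.69, 4.31, 8.01 and 3.91).

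Where a gene has several probe sets, the value depended on which was read. Of 34 probe sets named above from such genes, the mean over all probe sets of the gene ended the call of 6, those of Gnao1, Baiap2, Atp1b2, Ndrg2, Ly6e and Pkp2. For a further 23 it kept the call but was over 1.5 times smaller. In the neuronal and precursor lists, the mean was 1.98 for Kalrn, -1.26 for Gabra6, 0.82 for Penk, 0.60 for Basp1, 0.44 for Atp1b1 and -0.61 for Pcp2. It was 0.48 for Gria1, 0.53 for Gria2, 0.63 for Prkce, 0.40 for Mef2c, 0.39 for Egr1 and 0.45 for Sox11. In the glial lists, Mbp gave -0.61, Mobp -0.97 and Septin4 -1.18. The rest were Smarcd2 (-0.57), Ank1 (-0.47), Actn1 (0.46), Aldh1a1 (-0.56), Clic4 (-0.80), Klk1b5 (-0.81), Nacc2 (-0.62) and Flii (-0.65). Each mean kept the sign of the single probe set.

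The 1X arrays, 1 per tissue, give the same comparison from 5 µg of RNA, with no replicate and so no test. Of the 262 called probe sets, 258 had the same sign at 1X, and the 1X difference was the larger in 122. Among 82 called genes of the lists, all 82 had the same sign and 49 were larger at 1X. Of the 29 lists, oligodendrocyte genes had the median that differed most between 1X and 3X. In that list the median was -0.80 at 1X against -0.23 at 3X, and 6 of its 7 called members differed more at 1X. The astrocyte median was -0.28 at 1X against -0.08 at 3X, and all 4 called members differed more at 1X. S100b differed by -1.99 at 1X and -0.43 at 3X, and Mog by -1.60 and -0.40. The excitatory list had a median of 0.40 at 1X and 0.13 at 3X, and 7 of its 11 called members were larger at 1X. Ngef differed by 2.11 at 1X and 0.72 at 3X, Plxnd1 by 0.99 and 1.55. The granule cell median was -0.03 at 1X and 0.03 at 3X. Kidney genes were mixed, with 5 of 14 called members larger at 1X. Napsa, an aspartic protease of kidney and lung, differed by -1.81 at 1X and -3.43 at 3X, and Miox, the myo-inositol oxygenase of proximal tubule, by -3.83 and -0.86.

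**Figure D5:**
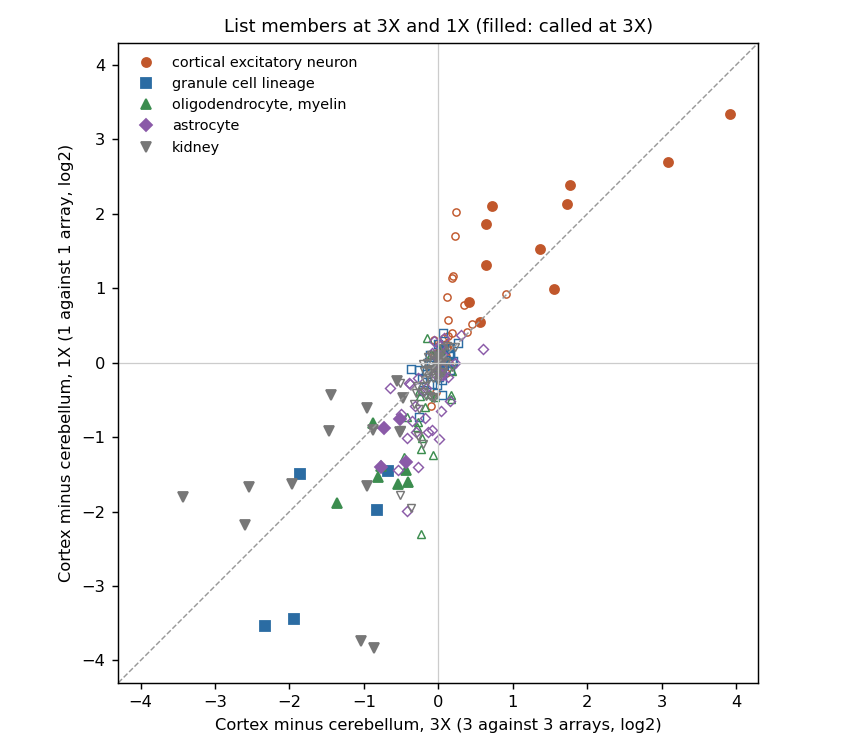
Difference of each measured member of 5 gene lists at 3X (horizontal axis, 3 against 3 arrays) and at 1X (vertical axis, 1 against 1 array), both cortex minus cerebellum on the log2 scale, with members called at 3X filled and a dashed line of equality. Filled points lie in the lower left and upper right quadrants, and 6 of the 7 filled oligodendrocyte members lie farther from 0 at 1X than at 3X.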

How the data were processed

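Expression was measured on MG_U74Av2 arrays, and the deposited table holds a log2 signal for each probe set, which the authors computed by RMA, per the submitters' processing notes. RMA subtracts background, equalises the distributions of the arrays and summarises the probes of a set, so small differences shared by most probes are removed. The sources used here do not name its version, the log base or which arrays were run together. Base 2 was read from the values, whose highest on all 12 arrays, 14.46, exceeds the natural logarithm of the top 16-bit scanner reading (11.09).

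After 66 control probe sets were left out, the other 12422 of 12488 entered a two-sided lmFit and eBayes fit (limma 3.58.1, R 4.3.3, Benjamini-Hochberg) of the 3 cortex and 3 cerebellum arrays. Of these, 10833 carried 1 symbol in the platform annotation, 396 several and 1193 none. RefSeq identifiers matched 10817. A gene in 1 of 29 lists stands for its probe set with the highest mean. The members and lists were chosen with earlier results of these data known. Named genes are the 24 largest called, non-overlapping differences in each direction, every called list member, and of the members not called the 6 with the highest mean and those that complete a family. Other members without a call were chosen after their values were seen. Arrays have no read depth, and their number limits the precision. On simulated arrays, 38.8% of changes of 0.5, 94.0% of changes of 1 and 98.5% of changes of 2 were recovered. The simulated errors were normal and independent between probe sets and arrays. Deviations shared by many probe sets of an array were not simulated, so these rates may not hold for the real arrays. Alternatives were other normalizations, filters, eBayes settings, a replicate block, fits of 9 and 12 arrays, and the removal of each array in turn.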

Additional observations from a re-analysis of the deposited data

Results flagged for a closer look

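Of the 262 called probe sets, 4 had opposite signs at 3X and at 1X. The difference between 3X and 1X was not tested, since 1X had 1 array per tissue. Gas7, a growth arrest protein of neurites, was higher in cortex at 3X (0.91, SE 0.14, limma adjusted p = 0.0064) and differed by -0.04 at 1X. Clcn4, a chloride transporter of endosomes, differed by 0.39 at 3X (adjusted p = 0.032) and -0.12 at 1X. Ppm1b, a protein phosphatase, differed by 0.48 at 3X (adjusted p = 0.037) and -0.09 at 1X. Pcid2, an mRNA export factor, differed by -0.41 at 3X (adjusted p = 0.026) and 0.03 at 1X. The probe sets of Gas7, Pcid2 and Ppm1b carried a suffix.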

How the results depend on the processing

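No called probe set changed sign in any alternative run per probe set that tested it. Under gene means, only 100 called probe sets were followed, and 0 were reversed. Fitting all 9 3X arrays, liver included, gave 132 calls (54 higher in cortex, 78 in cerebellum), and an additive model over 12 arrays gave 116 (47 and 69). The cause was not tested. Of the 100 followed, 32 lost their call in the fit of 9 arrays and 43 in that of 12. Ttr, Dynll1 (limma adjusted p = 0.154 and 0.109) and Cd59a (0.0749 and 0.0618) lost it in both. Among those lost with 12 arrays were Cck (0.238), Mbp (0.203), Gria1 (0.411) and Aldoc (0.253). Leaving out each array in turn gave 150 to 239 calls, 54 to 123 higher in cortex and 93 to 141 in cerebellum, and 67 of 100 called probe sets that were followed kept their call in all 6 cases. Quantile normalization gave 258 calls, median centring 261, trend and robust settings 267 and gene means 215. Probe sets above the median level gave 189 calls out of fewer tested (6211), and those without a suffix 201. The deviations of same-numbered replicates from their tissue means correlated by 0.02, -0.10 and 0.30, and those of differently numbered ones by -0.30 to 0.25. With 3 arrays per tissue these values cannot decide whether same-numbered replicates were paired. The replicate block gave 298 calls (116 and 182), 240 of them among the 262, and ended the calls of Mmp17, Rplp0 and Klk6 among the 100. Dim signals have no detection call in RMA, and both groups were dim in 55 of the 262.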
